A study of Ovis aries with 36 samples.

Results

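The genes described here are 77 of the 27054 genes of a sheep brain count table, and they stood higher in the motor cortex than in the hippocampus, the basal ganglia and the cerebellum. They were chosen by measured values, namely each gene's mean level over the 9 lambs in each region. A gene was taken when its motor cortex mean was at least 1 CPM (a gene's counts scaled to a common library total) and at least 75% above the highest of the other 3 region means. Of the 14942 genes with a motor cortex mean of 1 CPM or more, 93 met this condition. From these, 16 were removed because the motor cortex of the preterm lambs was separated from that of all other lambs by at least 1.5-fold, 13 with lower and 3 with higher preterm values. The height of the members in the motor cortex is therefore a description and was not tested, and the same holds for their motor cortex levels in preterm against other lambs.

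The tissue came from 9 lambs of 3 arms, each lamb giving 1 RNA library per region, 36 in all. The supported arm (5 lambs, A to E; 4 female, 1 male) was delivered before term and placed at once, through cannulation, on EXTEND, an extrauterine support model, until an age near that of the late preterm controls. The late preterm arm (2 male lambs, F and G) was delivered at 127 days of gestation and the preterm arm (2 lambs, H and I, 1 of each sex) earlier, both without support. No genetic change or drug treatment is given in the labels for any arm. Arms hold different animals, so spreads between libraries are between lambs.

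The motor cortex is the part of the neocortex that holds the large projection neurons sending axons to the brainstem and spinal cord. Like other neocortex it is built in layers of excitatory neurons with inhibitory interneurons among them. The hippocampus is also a cortical structure, of simpler layering. The basal ganglia are deep nuclei made mostly of inhibitory neurons, and the cerebellum is dominated by granule cells. No symbol was found for any of the 77 members, so they are given by Ensembl identifier, without function, position or sequence, and the tissue labels could not be checked against cell type markers. In bulk tissue, fewer cells of a type and less RNA per cell cannot be told apart.

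Library depth ran from 8782652 to 18153142 counts. Every library from lamb A, H or I (8782652 to 13020225 counts) was shallower than those of lambs B to G (13765297 to 18153142), so the preterm arm lies wholly among the shallower libraries. No member was at 0 in any motor cortex library. In the other regions 1 to 20 members per library were at 0, most often in the cerebellum (median 14 members).

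Several libraries went against their region label. Each library was compared with the mean profile of each region over the other 8 lambs, by the correlation of log2(CPM + 0.5) over 15173 genes that are not members. All motor cortex and cerebellum libraries were most like their own region. The cerebellum library of preterm lamb H was so at a low correlation, 0.784 to the cerebellum and 0.753 to 0.771 to the other regions. The other cerebellum libraries had 0.967 to 0.987 to the cerebellum. Those of lambs D and G stood nearer the other regions, at 0.9505 to 0.9537 (D) and 0.9451 to 0.9465 (G). In lambs A, B, C, E, F and I these correlations were 0.8782 to 0.9132. Of the hippocampus libraries 5 of 9 were not most like their own region. Lambs G, H and I were most like the motor cortex there, and lambs B and E most like the basal ganglia. Of the basal ganglia libraries 5 of 9 were not, with lamb I most like the motor cortex and lambs A, C, F and G most like the hippocampus, some by small margins. Among them are the hippocampus of both preterm lambs and the basal ganglia of both late preterm lambs. The labelled regions were kept in all comparisons, and in the libraries most like their own region no preterm hippocampus and no late preterm basal ganglia remains to be compared. Whether dissection differed between lambs was not tested.

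Members spanned a wide range of abundance. Motor cortex means ran from 1.02 to 900 CPM with a median of 5.40 CPM. There were 21 members under 2 CPM, 24 from 2 to under 10, 17 from 10 to under 50 and 15 at 50 CPM or more. The ratio of the motor cortex mean to the next region had a median of 2.06 and reached 8.64, and 46 members were at least 2-fold, 12 at least 3-fold and 5 at least 5-fold above the next region. The next region was the hippocampus for 56 members, the basal ganglia for 18 and the cerebellum for 3. The cerebellum mean was at most 20% of the motor cortex mean for 57 members and at most 10% for 23, with a median of 13.3%. By means over all 9 lambs the members' typical order was thus motor cortex, hippocampus, basal ganglia and cerebellum. Of the 77 members 58 were higher in the hippocampus than in the basal ganglia. In the 5 supported lambs alone the members summed to 973 ± 520 CPM (SD) in the hippocampus and 1073 ± 409 CPM in the basal ganglia. Several libraries in these means were most like another region.

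**Figure D1:**
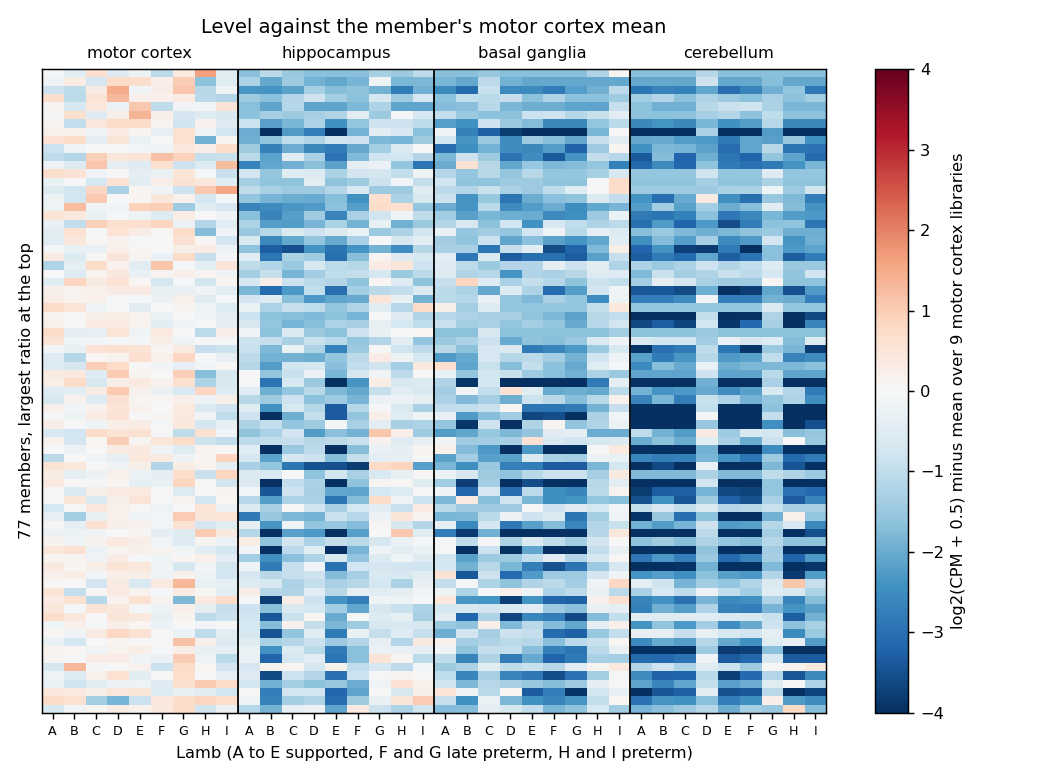
Each row is 1 of the 77 members (largest ratio to the next region at the top) and each column 1 of the 36 libraries. Colour is log2(CPM + 0.5) minus that member's mean over the 9 motor cortex libraries; blue is lower. The cerebellum columns are the darkest blue except in lambs D and G, and the hippocampus columns of lambs G, H and I and the basal ganglia column of lamb I are the palest outside the motor cortex.

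Steepness and abundance went in opposite directions among the members. The 40 members at 5 CPM or more had a median ratio of 1.94, and the 37 below 5 CPM had a median ratio of 2.37. The rarer members also varied more between lambs, with a median coefficient of variation (SD as a percent of the mean over 9 motor cortex libraries) of 50.8% against 31.6%. Over all genes at 5 CPM or more in the motor cortex, the median coefficient of variation was 15.8%. The members at 5 CPM or more thus varied more between lambs than the typical gene past that level, within the region in which they are highest. Members were chosen by means over these same libraries, so their ratios and spreads are not independent of the choice. The genes set beside them were not matched for level.

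The members with the largest ratios were rare transcripts. ENSOARG00000025591, with a ratio of 8.64, was at 1.04, 0.694, 2.03, 0.606 and 0.863 CPM in the motor cortex of supported lambs A to E, 0.252 and 1.60 CPM in late preterm lambs F and G, and 4.51 and 0.690 CPM in preterm lambs H and I. Lamb H lay above all others, the arms overlapped, and these values rest on 4 to 54 reads per library. Outside the motor cortex this gene was at 0 in 4 hippocampus, 6 basal ganglia and 8 cerebellum libraries.

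ENSOARG00000016328 had a ratio of 7.46 and was higher in the motor cortex than in any other region in all 9 lambs. Its motor cortex levels were 1.30, 2.02, 0.799, 2.92 and 2.82 CPM in lambs A to E, 1.96 and 3.61 CPM in F and G, and 0.167 and 0.985 CPM in H and I. The preterm lambs were low, but lamb C lay between them. Its highest level elsewhere was 1.30 CPM, in the hippocampus of lamb G.

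At the other end of abundance, ENSOARG00000011014 had the highest motor cortex mean of the members, 900 ± 250 CPM (SD, n = 9), against 438 ± 230 CPM in the hippocampus, 366 ± 256 CPM in the basal ganglia and 95.3 ± 154 CPM in the cerebellum. In the motor cortex it was at 996, 807, 980, 1277 and 971 CPM in lambs A to E, 867 and 1131 CPM in F and G, and 585 and 485 CPM in H and I. Both preterm lambs lay below the other 7. In lamb H the hippocampus, at 572 CPM, nearly matched the motor cortex, while in lamb E it was 86.4 CPM. In the cerebellum 7 lambs had 13.1 to 44.3 CPM and lambs D and G had 437 and 279 CPM.

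ENSOARG00000010712 was next, at 185 ± 43.9 CPM in the motor cortex and 71.9 ± 42.5 CPM in the hippocampus. Its motor cortex values were 259, 237, 150, 176 and 156 CPM in lambs A to E, 127 and 221 CPM in F and G, and 179 and 164 CPM in H and I, so the arms overlapped fully. It was highest in the motor cortex in all 9 lambs, by least in preterm lambs H (161 CPM in the hippocampus) and I (151 CPM in the basal ganglia). Together with ENSOARG00000013936 it was the member whose log2(CPM + 0.5) most resembled that of ENSOARG00000025591, with Pearson correlations over 36 libraries of 0.762 and 0.771. These points share lambs and libraries and include the regional difference by which the genes were chosen.

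**Figure D2:**
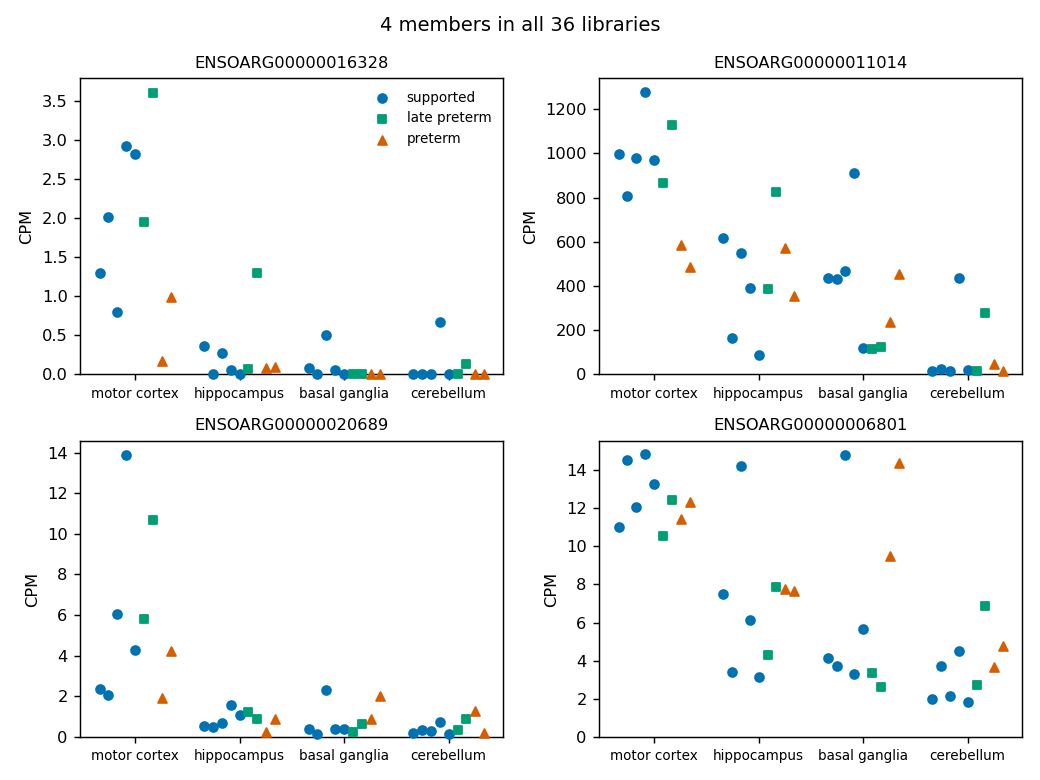
CPM of 4 members in every library, by region; each point is 1 lamb, ordered A to I within a region, blue circles supported, green squares late preterm, orange triangles preterm. ENSOARG00000016328 and ENSOARG00000020689 are low outside the motor cortex in nearly all lambs, ENSOARG00000011014 is lower in the motor cortex of the preterm lambs, and ENSOARG00000006801 is even between lambs there.

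Among members at 5 CPM or more, the steadiest between lambs was ENSOARG00000006801, with a coefficient of variation of 11.9%. It was at 10.5 to 14.9 CPM in all 9 motor cortex libraries against 6.89 ± 3.34 CPM in the hippocampus and 6.82 ± 4.84 CPM in the basal ganglia (SD, n = 9). In lambs C and I a region other than the motor cortex was higher, at 14.8 CPM in the basal ganglia of C and 14.4 CPM in that of I. ENSOARG00000004861 was the next steadiest (14.6%), at 39.4 to 64.2 CPM in the motor cortex and 26.3 ± 12.3 CPM in the hippocampus.

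The most variable member at that level was ENSOARG00000020689 (72.1%). It was at 2.34, 2.08, 6.03, 13.9 and 4.26 CPM in the motor cortex of lambs A to E, 5.80 and 10.7 CPM in F and G, and 1.92 and 4.24 CPM in H and I. Lambs D and G stood highest and the 3 arms overlapped. It was highest in the motor cortex in all 9 lambs and did not exceed 2.30 CPM in any other region. ENSOARG00000004018 (65.3%) fell into 2 ranges in the motor cortex: 1.77 to 2.27 CPM in lambs A, B, H and I, and 6.50 to 11.2 CPM in the other 5. These ranges cut across the arms.

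On either side of the threshold on the ratio the values were close. Just inside were ENSOARG00000019140, at 16.1 CPM in the motor cortex and 9.19 CPM in the hippocampus, and ENSOARG00000015124, at 5.04 and 2.88 CPM. Just outside were ENSOARG00000009902, at 148 CPM in the motor cortex with a ratio of 1.748, and ENSOARG00000017599, at 128 CPM with a ratio of 1.747. Both would also have been removed for low preterm values, by separations of 1.67 and 1.70. At the other threshold, ENSOARG00000010519 stayed in the set because its lowest value in the 7 supported and late preterm lambs was 1.48 times the highest preterm value. Of the genes removed for low preterm values, those with the smallest separation were ENSOARG00000011575, at 1.70, and ENSOARG00000016960, at 1.72.

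The regional pattern was then followed lamb by lamb. All 77 members summed to 2700 ± 482 CPM (SD, n = 9 lambs) in the motor cortex, 1278 ± 609 CPM in the hippocampus, 1014 ± 530 CPM in the basal ganglia and 385 ± 371 CPM in the cerebellum. In the motor cortex the sums were 2992, 2668, 2707, 3378 and 2910 CPM in supported lambs A to E, 2454 and 3158 CPM in late preterm lambs F and G, and 2195 and 1839 CPM in preterm lambs H and I. The supported and late preterm sums overlapped and both preterm sums lay below them. This order rests in part on 1 member, for without ENSOARG00000011014 lamb H (1611 CPM) lay above late preterm lamb F (1587 CPM).

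Outside the motor cortex the sums differed widely between lambs. In the hippocampus they were 1592, 430, 1235, 1176 and 430 CPM in lambs A to E, 1016 and 2221 CPM in F and G, and 1929 and 1475 CPM in H and I. Supported lambs B and E were lowest, and lamb G of the late preterm arm was higher than both preterm lambs. In the basal ganglia they were 1561, 804, 1147, 1320 and 532 CPM in A to E, 461 and 365 CPM in F and G, and 1004 and 1929 CPM in H and I. Both late preterm lambs were below all others there, and in lamb I the basal ganglia sum was 105% of that lamb's own motor cortex sum. Over the 4 libraries most like their own region the sum was 1255 ± 243 CPM in the hippocampus and 915 ± 332 CPM in the basal ganglia. In the cerebellum 7 lambs had 183 to 252 CPM while lamb D had 1169 CPM and lamb G 883 CPM.

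**Figure D3:**
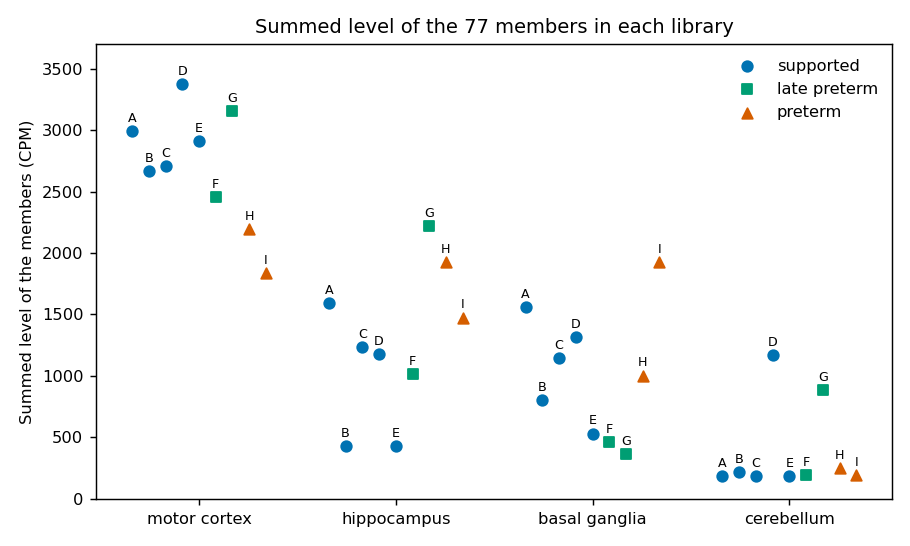
Summed CPM of the 77 members in each of the 36 libraries, by region; letters are lambs, blue circles supported, green squares late preterm, orange triangles preterm. The motor cortex sums run from 1839 to 3378 CPM, the preterm lambs H and I lie lowest there, and lambs D and G lie apart in the cerebellum.

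Seen within lambs, the motor cortex was the highest of the 4 regions for 64, 71, 71, 74 and 76 members in supported lambs A to E and for 74 and 63 members in late preterm lambs F and G. It was so for 45 members in preterm lamb H and 38 in preterm lamb I. In lamb H the hippocampus was highest for 23 members. In lamb I the basal ganglia was highest for 24 and the hippocampus for 15. For single genes, the motor cortex was highest in all 9 lambs for 12 members, in 8 lambs for 24, in 7 for 31, in 6 for 9, and in 5 lambs for ENSOARG00000017231 alone, a gene at 1.02 CPM named after its values were seen.

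These counts use the lambs that chose the members. To look at libraries that took no part, the choice was repeated on 8 lambs and read in the lamb left out. Of the genes so chosen, the motor cortex was highest in 75.6% (lamb A), 76.1% (B), 90% (C), 90% (D) and 96.6% (E) in the supported arm, on 58 to 82 chosen genes. The late preterm lambs gave 90.3% (F) and 68.7% (G), and the preterm lambs 48.8% (H) and 40.5% (I). Among all genes at 1 CPM or more in the motor cortex the same share was 15.5% to 24.5% per lamb. Over the 9 lambs together 488 of 661 choices (73.8%) held in the lamb left out, against 19.3% of all genes.

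The ratio itself was smaller in some lambs left out. The median ratio of the motor cortex to the highest other region was 1.46, 2.07, 1.86, 2.37 and 3.43 in lambs A to E, 2.52 and 1.29 in F and G, and 0.994 and 0.857 in H and I. In preterm lamb H the motor cortex exceeded the hippocampus for 44 of 80 chosen genes but the basal ganglia for 69 and the cerebellum for 74. In preterm lamb I it exceeded the hippocampus for 46 of 79, the basal ganglia for 38 and the cerebellum for 76. In both preterm lambs the cerebellum thus remained lower for most of these genes. The hippocampus of both and the basal ganglia of lamb I came near motor cortex levels. Those libraries and the hippocampus of lamb G were most like the motor cortex over other genes. Lambs A, H and I, all in the shallower libraries, differed among themselves here, with 75.6% in A. The part of depth in this pattern was not tested.

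**Figure D4:**
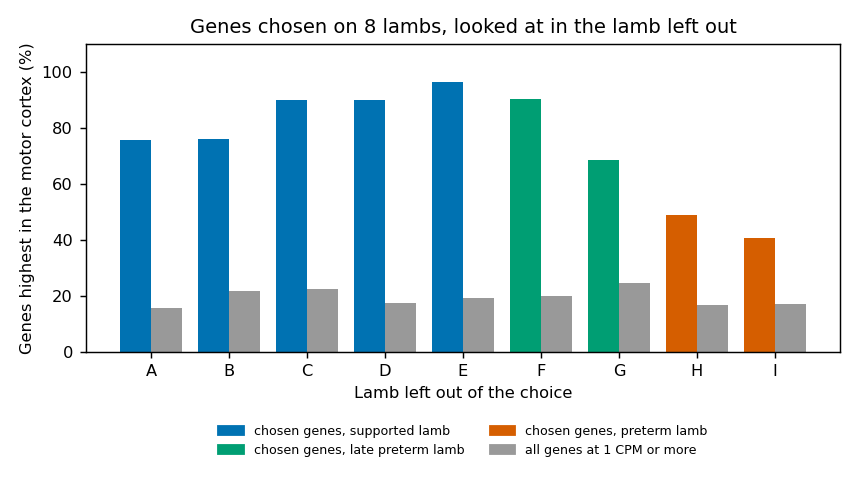
Share of genes that were highest in the motor cortex of the lamb left out, for genes chosen on the other 8 lambs (coloured by arm) and for all genes at 1 CPM or more in the motor cortex (grey). Coloured bars run from 40.5% (lamb I) to 96.6% (lamb E) and grey bars from 15.5% to 24.5%.

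A small group turned round between the arms. For 7 of the 77 members the motor cortex was above the hippocampus in all 7 supported and late preterm lambs and below it in both preterm lambs, as was true of 0.85% of the 14942 genes at 1 CPM or more. The same held against the basal ganglia for 3 members, beside 0.596% of all genes, and against the cerebellum for 1 member, beside 1.15%. Both preterm hippocampus libraries and the basal ganglia library of lamb I are most like the motor cortex. Members were chosen for a high motor cortex mean over all lambs, so their share cannot be read against that of all genes as a test.

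How members varied together also differed by region. Over the 780 pairs of the 40 members at 5 CPM or more, the median Pearson correlation of log2(CPM + 0.5) was 0.236 across the 9 motor cortex libraries and 0.608 across the 9 hippocampus libraries. The points of each correlation share the same 9 libraries and their depth, and 5 of the 9 hippocampus libraries were most like another region. Members thus moved up and down together between lambs in the hippocampus more than in the motor cortex, as a description with no test.

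Supported and late preterm lambs were compared to ask whether the brain of supported lambs differed from that of unsupported lambs of similar age. In the motor cortex all 77 members were tested and none differed at an adjusted p under 0.05 (edgeR quasi-likelihood test, adjustment over all 16173 genes tested). No gene of the whole table did so either, a background of 0%. At an unadjusted p under 0.05 there were 11 members (14.3%) beside 16.5% of all genes, and DESeq2 called 3 of the 59 members it tested, all higher in supported lambs, beside 4.26% of all genes. The median log2 fold change of the members was 0.01, against -0.01 over all genes, with 40 of 77 above 0 and a range of -1.23 to 1.10. The median SE of a member was 0.38 on this scale, and an adjusted p above the threshold is no proof of likeness. Both late preterm lambs were male and 4 of the 5 supported lambs female, so sex and arm are hard to tell apart. With sex as a covariate in edgeR, 7 members had an unadjusted p under 0.05, beside 1100 of the 16173 genes.

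The smallest p in that comparison belonged to ENSOARG00000003378. It was at 16.8, 16.5, 15.0, 17.4 and 17.7 CPM in supported lambs A to E and at 8.45 and 10.2 CPM in late preterm lambs F and G. The 2 arms did not overlap, and the preterm lambs, at 9.19 and 7.39 CPM, were on the late preterm side. The edgeR log2 fold change of 0.87 ± 0.17 (SE) did not pass (edgeR adjusted p = 0.1). Over 15 alternative settings the adjusted p ran from 0.000901 in DESeq2 to 0.541 in edgeR with sex as a covariate. In the hippocampus its levels in lambs A to I ranged from 0.973 to 14.8 CPM, with all 3 arms overlapping.

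The difference between the motor cortex and the mean of the other 3 regions was also compared between these arms, with the lamb as a block over all 36 libraries. None of the 77 members passed in edgeR, nor did any of the 17450 genes tested (0%), and DESeq2 called none (0% of all genes). At an unadjusted p under 0.05 there were 2 members beside 3.35% of all genes. The median log2 difference of the members between the arms was -0.01 with a median SE of 0.84. ENSOARG00000009938 had the smallest p (2.69 ± 1.15, edgeR adjusted p = 0.994), a gene at 0.0551 to 3.55 CPM in the motor cortex. A change in the regional height of the members between supported and late preterm lambs was thus not detectable with these SEs.

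Outside the motor cortex fewer members passed the filter on low counts, 68 of 77 in the hippocampus, 67 in the basal ganglia and 53 in the cerebellum. The edgeR counts that follow are over those, while DESeq2 tested its own number of members. The region means that chose the members hold these libraries, 5 of each 9 from supported lambs, so the medians outside the motor cortex are not independent of the choice and are given as a description. In the hippocampus no member differed between supported and late preterm lambs in edgeR (background 0%). At an unadjusted p under 0.05 there were 7 members beside 4.86% of all genes, and DESeq2 called none of 56 members beside 0.141% of all genes. The members' median log2 fold change was -0.63, with 9 of 68 above 0, against 0.01 over all genes. The median depended on the late preterm lamb kept: it was 0.13 without lamb G, whose hippocampus was most like the motor cortex, and -1.08 without lamb F. In the 4 libraries most like the hippocampus (supported A, C and D, late preterm F) it was 0.52, with 0 of 64 members called by edgeR. ENSOARG00000000618 had the smallest p there, at 0.179 to 0.887 CPM among supported lambs and 2.98 and 3.29 CPM in the late preterm lambs (a log2 difference of -2.41 ± 0.65 by edgeR, adjusted p = 0.864).

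In the basal ganglia no member passed in edgeR between these arms, beside 0.288% of all genes, while 23 of 67 had an unadjusted p under 0.05 beside 15.1% of all genes. DESeq2 called 16 of 67 members, 15 higher and 1 lower in the supported lambs, beside 5.91% of all genes. The median log2 fold change of the members was 1.23, with 54 of 67 above 0, against 0.02 over all genes, and it ran from 0.98 to 1.97 over the alternatives. ENSOARG00000007395 came nearest to the threshold. It was at 2.46, 6.23, 4.10, 5.84 and 5.50 CPM in lambs A to E and at 0.851 and 0.705 CPM in F and G, with no overlap (a log2 difference of 2.55 ± 0.46 by edgeR, adjusted p = 0.0658; 2.297e-05 in DESeq2 and up to 0.548 in edgeR over the alternatives). The preterm lambs, at 3.53 and 5.31 CPM, lay within the supported range. Lambs F and G are also those with the lowest summed member level in the basal ganglia. Their basal ganglia libraries, and those of supported lambs A and C, were most like the hippocampus over other genes. The part of these libraries in the values above was not tested. Both late preterm lambs were male and 4 of the 5 supported lambs female. With sex as a covariate the members' median log2 fold change was 1.97.

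In the cerebellum no member passed between supported and late preterm lambs in edgeR (background 0%), 1 of 53 had an unadjusted p under 0.05 beside 1.19% of all genes, and DESeq2 called none of 60 members beside 0.0314% of all genes. The median of -0.50 turned to 0.80 without lamb G and was -1.22 without lamb D, -1.29 without lamb F and -1.31 with sex as a covariate. ENSOARG00000015124 had the smallest p, at 0.0943 to 0.953 CPM in supported lambs against 0.337 and 4.98 CPM in the late preterm lambs (a log2 difference of -2.63 ± 0.92 by edgeR, adjusted p = 1). Its late preterm level rests on lamb G alone.

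The comparison of supported with preterm lambs sets the end of support against a brain delivered early. The choice of members used this contrast in the motor cortex, so its counts are a description only. Of the 77 members 13 were called higher and 2 lower in supported lambs in edgeR, beside 12.2% of all genes, and the median log2 fold change was 0.50. All 7 supported and late preterm lambs lay above both preterm lambs for 13 members, beside 10.2% of all genes at 1 CPM or more, and below both for 3 members, beside 13.4%. The strongest separations had been removed with the 16 genes.

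ENSOARG00000010519 was the called member with the largest rise, at 118, 98.8, 71.5, 102 and 97.2 CPM in supported lambs A to E, 58.8 and 77.9 CPM in late preterm lambs, and 34.7 and 39.8 CPM in H and I (log2 fold change 1.44 ± 0.19). ENSOARG00000000118 was at 16.0 to 30.1 CPM in supported lambs, 20.6 and 25.3 CPM in the late preterm and 10.3 and 10.9 CPM in preterm lambs H and I (log2 fold change 1.27 ± 0.28). Its call was lost without lamb H, without lamb I and under the depth covariate (0.82, edgeR adjusted p = 0.297). In the opposite direction, ENSOARG00000013621 was at 7.26 to 11.2 CPM in the supported lambs and 27.5 and 22.7 CPM in the preterm lambs, with the late preterm lambs split at 8.95 and 20.6 CPM. That call was lost under the same 3 changes, with an edgeR adjusted p of 0.0569 to 0.255. ENSOARG00000015783 was at 71.2 to 85.6 CPM in supported lambs, 65.2 and 59.4 CPM in the late preterm and 171 and 108 CPM in the preterm lambs. In the hippocampus its preterm level (177 and 62.2 CPM) was also above that of supported lambs (1.09 to 37.8 CPM). Both preterm libraries there were most like the motor cortex. The motor cortex call of ENSOARG00000015783 was lost with the depth group as a covariate. Without lamb H, which left only lamb I in the preterm arm, its motor cortex log2 fold change went from -0.80 to -0.40.

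**Figure D5:**
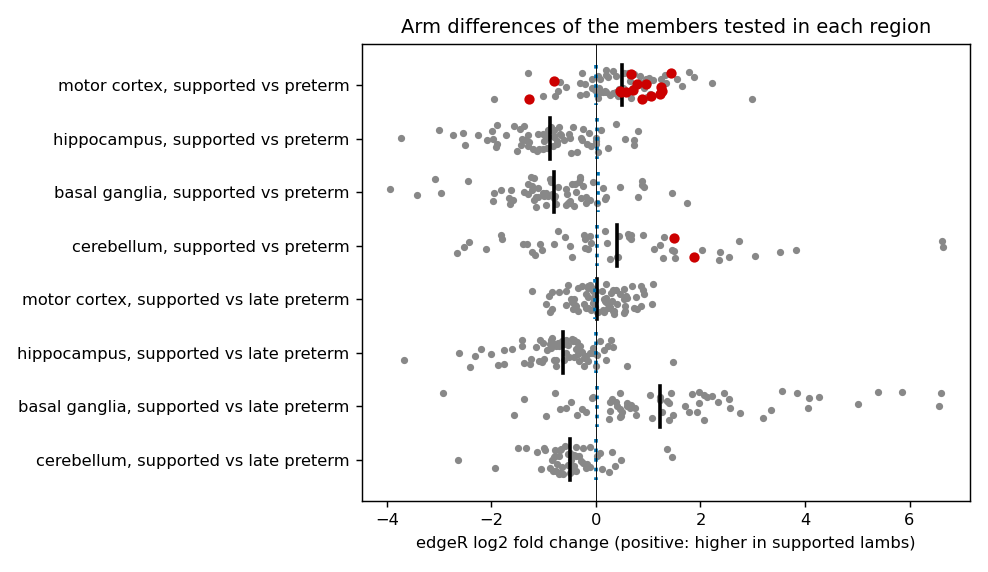
edgeR log2 fold changes of the members tested (points) in each region, supported against preterm and against late preterm lambs; red points have an adjusted p under 0.05, black bars are the members' medians and dotted blue bars those of all genes tested. In the motor cortex the median is 0.50 against preterm and 0.01 against late preterm lambs, and in the hippocampus and basal ganglia it is -0.88 and -0.80 against preterm lambs.

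In the hippocampus no member differed between supported and preterm lambs in edgeR, beside 2.52% of all genes. At an unadjusted p under 0.05 there were 11 of 68 members (16.2%) beside 24.5% of all genes, and DESeq2 called 5 of 69 members, all lower in the supported lambs, beside 12.5% of all genes. The median log2 fold change was -0.88 against 0.03 over all genes, with 10 of 68 above 0. Both preterm hippocampus libraries were most like the motor cortex, and those of supported lambs B and E most like the basal ganglia. The part of these libraries in the median and in the values below was not tested. ENSOARG00000017475 came nearest to the threshold, at 0.982, 3.19, 2.50, 2.33 and 5.15 CPM in lambs A to E against 13.97 and 10.7 CPM in lambs H and I. The arms did not overlap, and of the late preterm lambs F (4.19 CPM) lay inside the supported range and G (8.28 CPM) above it (a log2 difference of -2.09 ± 0.50 by edgeR, adjusted p = 0.0598). Without lamb A it passed (edgeR adjusted p = 0.0442), as it did in DESeq2 (adjusted p = 0.00303), and over all alternatives the adjusted p reached 0.446.

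In the basal ganglia no member and no gene passed between these arms in edgeR (background 0%). There were 12 of 67 members at an unadjusted p under 0.05 beside 12.2% of all genes, and DESeq2 called 2 of 55 members, both lower in supported lambs, beside 3.34% of all genes. The members' median log2 fold change was -0.80, with 11 of 67 above 0. It was -0.14 without preterm lamb I, whose basal ganglia held the highest member sum, and -1.15 without lamb H. ENSOARG00000009938 had the smallest p, at 0 to 0.248 CPM among supported and 0.861 and 1.74 CPM in the preterm lambs (a log2 difference of -3.42 ± 0.81 by edgeR, adjusted p = 0.221). In the 4 libraries most like the basal ganglia (supported B, D and E, preterm H) the median was -0.81, with 0 of 62 members called by edgeR. The comparisons in hippocampus and basal ganglia share preterm lambs H and I. With the depth group as a covariate, where lamb A alone stands for the supported arm among shallower libraries, the medians were -0.19 and -0.09.

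In the cerebellum 2 of 53 members passed in edgeR between supported and preterm lambs, beside 9.57% of all genes in either direction. Both were higher in the supported arm. DESeq2 called 5 of 39 members, 2 higher and 3 lower in supported lambs, beside 3985 of 16641 genes. The members' median log2 fold change there was 0.41, with 30 of 53 above 0, but it was -0.55 without lamb D, whose cerebellum held the highest member sum, and -0.98 with the depth group as a covariate. ENSOARG00000010519 was at 53.9, 49.1, 50.9, 50.9 and 47.5 CPM in lambs A to E, 47.6 and 38.5 CPM in late preterm lambs F and G, and 6.83 and 19.0 CPM in preterm lambs H and I. The 7 later lambs lay close together and well above both preterm lambs (a log2 difference of 1.88 ± 0.28 by edgeR, adjusted p = 0.0239). Without lamb H the log2 difference was 1.48. Without lamb I it was 2.45, with only lamb H left in the preterm arm, whose cerebellum library was the least like its own region. The call held, barely, without lamb G (edgeR adjusted p = 0.04998). It was lost without lamb A, B, C, D, E or F, with an edgeR adjusted p of 0.0505 to 0.0793 and log2 fold changes of 1.86 to 1.91. In the hippocampus this gene showed no such order, with 6.49 to 75.9 CPM among supported and 56.6 and 28.6 CPM in the preterm lambs.

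ENSOARG00000007395 was the other, at 8.77, 8.67, 5.52, 8.91 and 6.88 CPM in lambs A to E, 6.34 and 8.30 CPM in F and G, and 1.48 and 3.61 CPM in H and I (a log2 difference of 1.49 ± 0.36 by edgeR, adjusted p = 0.0389). Both preterm lambs were again below the other 7, but the call was lost when any of lambs A to H was left out. The log2 difference without lamb H was 1.18. The fit without lamb I, in which the call held, kept only lamb H in the preterm arm. In the motor cortex ENSOARG00000007395 was at 9.91 to 19.9 CPM in supported lambs, 10.9 and 9.29 CPM in the late preterm and 5.18 and 7.88 CPM in the preterm lambs. Both genes are among the 3 members whose cerebellum mean was over 50% of the motor cortex mean, so they are members with an appreciable cerebellum level. With the depth group as a covariate neither passed (log2 fold changes of 1.94 and 1.64, edgeR adjusted p = 0.423 for each). Lamb A, in the shallower libraries, lay with the deeper lambs for both genes. Both preterm lambs are in the shallower libraries and lamb A is the only other lamb there. Depth and arm are therefore hard to tell apart.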

How the data were processed

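Whole-number read counts per gene, deposited as 1 table of 36 libraries, were used as they stand. Per the series' design text, the authors checked paired reads with SeqKit, trimmed them with fastp, aligned them with STAR to the sheep genome of Ensembl release 107 and took STAR's gene counts without regard to strand. For tool versions and the assembly name, nothing is given in the sources used here. Reads of overlapping or antisense genes therefore cannot be told apart.

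CPM for choosing and describing members were counts divided by column totals. Of 35057 genes in a RefSeq table, 0 carried an identifier of the count table, so marker lists were not tested. Arms were compared per region (9 libraries, arm as factor) with edgeR 4.0.16 in R 4.3.3: filterByExpr, TMM scaling, the quasi-likelihood test, and p-values adjusted by Benjamini-Hochberg across every gene tested, threshold 0.05. The SE was taken from the fold change and F. Regional differences were fitted on the 36 libraries together, blocked by lamb, since the 4 regions come from the same animals. DESeq2 1.42.0 was an alternative. The scripts were tested on simulated data. Libraries of the same arm and region all differed beyond sampling noise (48 pairs, chi-square per degree of freedom of 8.17 to 205). Members and lists were chosen with earlier results of these data known. Identifiers were named by rule: the extremes of ratio, level and variability (at 5 CPM or more), the genes beside the threshold, the 2 most like the leading member, and per comparison up to 2 called members per direction, or else that with the smallest p.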

Additional observations from a re-analysis of the deposited data

Results flagged for a closer look

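In 3 of 24 sets of 5 supported lambs examined, 1 lamb lay far from the other 4 (Dixon's test at 95%, which chance alone meets in about 1 in 20 sets). The summed member level in the cerebellum was 1169 CPM in lamb D against 183 to 217 CPM in the other 4. ENSOARG00000013936 was at 2.08 CPM in the motor cortex of lamb A against 3.66 to 4.08 CPM in the others. ENSOARG00000000618 was at 9.01 CPM in the motor cortex of lamb C against 2.59 to 3.38 CPM. The causes were not tested.

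Some members lay above another region in the motor cortex of all 5 supported and both late preterm lambs, and below it in both preterm lambs. They numbered 7 for the hippocampus, 3 for the basal ganglia and 1 for the cerebellum. Among the 14942 genes at 1 CPM or more in the motor cortex the shares were 0.85%, 0.596% and 1.15%. This difference between arms was not tested. The hippocampus libraries of both preterm lambs and the basal ganglia library of lamb I are most like the motor cortex over other genes.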

How the results depend on the processing

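The number of members was 144 with a 1.5-fold and 46 with a 2-fold requirement, and 40 with a minimum of 5 CPM. It stayed within 1.5 times of 77 under the other settings. Medians in place of means gave 103, of which 59 were members, and leaving out the 10 hippocampus and basal ganglia libraries most like another region gave 106, of which 64 were members. With any 1 lamb left out it was 58 to 83, and 31 of the 77 members were chosen in all 9 such runs.

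For supported against preterm lambs, 1 member was called in the motor cortex with the depth group as a covariate, beside 171 of 16173 genes. With 1 of lambs A to G left out, the count ran from 9 (without A, D or E) to 17 (without B). Over all genes, 1493, 1388 and 1470 were called without A, D and E, and 1992 without B. Fewer members and fewer genes were called without lamb H or I, which left a single preterm lamb. In the hippocampus DESeq2 called 5. Leaving out 1 lamb there gave 0 to 3, the most without lamb A, beside 939 of 16347 genes. In the basal ganglia DESeq2 called 2. In the cerebellum DESeq2 called 5 (2 higher and 3 lower in supported lambs), beside 3985 of 16641 genes. The fit of only the compared arms called 1, beside 74 of 16068. Sex as a covariate gave 4 (2 higher and 2 lower), beside 3209 of 16304 genes, and the depth group 0, beside 0 genes. Leaving out 1 of lambs A to G gave 0 or, without G, 1. Without lamb I, which left lamb H alone in the preterm arm, calls rose among members and over all genes. For supported against late preterm lambs DESeq2 called 3 in the motor cortex and 16 in the basal ganglia. Every other alternative of that comparison gave 0 called members. So did the fit of regional differences without the replicate block (0, against 0 with it). The causes were not tested. Fits on only the libraries most like their own region, chosen after seeing the data, called 0 in the hippocampus against late preterm and 0 in the basal ganglia against preterm lambs. Without the 10 libraries the regional difference could not be fitted. Depth limits the rarest members most, at 2 to 54 reads per motor cortex library for the steepest.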
